A study of Mus musculus with 6 samples.

Results

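Nucleotide synthesis and one-carbon metabolism were followed through 33 genes, picked by symbol from a table of 21988, in mouse embryonic fibroblasts that were carried through serial passage. The fibroblasts came from C57BL/6 embryos taken at day 13.5 of pregnancy. They were harvested at population doubling (PD) 2, 8 and 14, where a doubling is counted from the ratio of cells harvested to cells seeded and summed over passages. Each PD had 2 libraries. Replicate 1 was strand-specific and made after ribosomal RNA was removed, while poly(A) selection gave replicate 2, so replicate and library method were the same thing. The labels name no treatment and no genotype beyond the strain for any of the 6 libraries, and they do not state whether the libraries of a PD came from separate cultures. The tests took out the mean difference between methods. P-values therefore measure only how far differences between PDs disagreed between the 2 methods, moderated by the spread of other genes. That spread may be technical. Its title names senescence, a durable exit from the cell cycle to which fibroblasts come in culture.

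A dividing cell must make purine and pyrimidine nucleotides, and turn part of them into deoxynucleotides, before it can copy its DNA. Purine rings are built on ribose phosphate and take carbon from folates charged with formyl groups, while thymidylate takes a methyl group from another folate. Those carbon units come largely from serine, which is made from a glycolytic intermediate and split in mitochondria and cytosol, and finished bases and nucleosides can also be salvaged. Several genes of deoxynucleotide supply are known to be induced as cells enter S phase, by factors of the E2F family, and several serine and mitochondrial folate genes are known targets of the stress factor ATF4 and of MYC.

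Promoters are shown first for 5 genes that were lower at late passage, the serine trio and the pair that forms ribonucleotide reductase, because each has a window with the same short motif, and for Ppat, the single member that held an E2F match. The sequences are RefSeq windows of GRCm38.p6, the same build as mm10, from 250 bases before to 50 bases after an annotated start, written 5′ to 3′ on the gene's strand. Capitals mark CCAAT or its reverse complement in the first 5, and an E2F match in Ppat.
Phgdh (chr3:98339920-98340219, minus strand): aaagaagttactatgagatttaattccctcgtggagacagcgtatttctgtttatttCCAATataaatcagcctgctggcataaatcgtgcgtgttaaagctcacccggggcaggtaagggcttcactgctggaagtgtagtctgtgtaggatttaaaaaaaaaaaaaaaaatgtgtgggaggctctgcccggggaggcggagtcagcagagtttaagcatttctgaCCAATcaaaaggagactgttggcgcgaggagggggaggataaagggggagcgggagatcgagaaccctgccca
Psat1 (chr19:15925010-15925309, minus strand): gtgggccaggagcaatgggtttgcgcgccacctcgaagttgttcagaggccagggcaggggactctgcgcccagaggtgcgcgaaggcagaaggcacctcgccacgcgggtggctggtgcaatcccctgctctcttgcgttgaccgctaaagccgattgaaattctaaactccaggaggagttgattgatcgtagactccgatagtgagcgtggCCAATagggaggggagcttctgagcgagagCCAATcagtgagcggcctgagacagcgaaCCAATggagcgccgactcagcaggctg
Psph (chr5:129787204-129787503, minus strand): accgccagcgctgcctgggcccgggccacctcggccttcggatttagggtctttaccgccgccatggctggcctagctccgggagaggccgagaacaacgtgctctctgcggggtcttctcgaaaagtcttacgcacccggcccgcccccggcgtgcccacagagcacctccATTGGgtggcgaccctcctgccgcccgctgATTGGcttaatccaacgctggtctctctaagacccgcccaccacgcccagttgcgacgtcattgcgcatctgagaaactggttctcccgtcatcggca
Rrm1 (chr7:102441445-102441744, plus strand): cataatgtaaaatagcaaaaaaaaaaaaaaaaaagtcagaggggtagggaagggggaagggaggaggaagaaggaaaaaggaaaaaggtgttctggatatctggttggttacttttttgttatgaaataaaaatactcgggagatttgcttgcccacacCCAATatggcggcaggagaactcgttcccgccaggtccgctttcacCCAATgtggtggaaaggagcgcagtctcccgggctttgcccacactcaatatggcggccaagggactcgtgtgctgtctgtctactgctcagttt
Rrm2 (chr12:24708004-24708303, plus strand): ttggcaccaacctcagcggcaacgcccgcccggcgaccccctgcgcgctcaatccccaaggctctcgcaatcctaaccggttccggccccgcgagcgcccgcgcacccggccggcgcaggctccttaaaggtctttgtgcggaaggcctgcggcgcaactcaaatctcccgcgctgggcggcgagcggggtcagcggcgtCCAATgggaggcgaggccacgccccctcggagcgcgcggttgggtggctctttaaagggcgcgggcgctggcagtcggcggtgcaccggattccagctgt
Ppat (chr5:76951529-76951828, minus strand): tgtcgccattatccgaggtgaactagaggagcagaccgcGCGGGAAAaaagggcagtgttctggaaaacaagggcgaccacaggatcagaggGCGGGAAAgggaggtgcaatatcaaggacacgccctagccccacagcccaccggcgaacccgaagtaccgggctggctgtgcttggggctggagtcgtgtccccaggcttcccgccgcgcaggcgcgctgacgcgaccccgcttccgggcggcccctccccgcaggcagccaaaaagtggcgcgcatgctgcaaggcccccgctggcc

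Psat1 has 2 windows in the table. The upstream one is shown, and the other holds 0 CCAAT matches. RefSeq windows were at hand for 30 of the 33 members, 35 windows in all, and in 30 of the 35 the bases after the start matched a GENCODE transcript of the gene, the 6 printed ones included. CCAAT, the letters bound by the factor NF-Y, was searched on both strands and stood in at least 1 window of 14 members. It was found in 15 of the 35 member windows (42.9%), against 37.4% of all 32851 promoter windows. Of the 13 members that fell it was present in 7, and of the other 17 members with a window also in 7. The E2F letters searched were TTTCCCGC, TTTCGCGC, TTTGCCGC and TTTGGCGC on both strands, which 2.26% of all windows held. They occurred in the window of Ppat alone, with first bases 211 and 158 bases before the start. CACGTG, the E-box that MYC binds, was in 6 member windows (17.1%) against 7.15% of all windows. These were windows of Atic, Impdh2, Nme1 (both of its windows), Paics and Tyms. Of the 13 members that fell it was present in 2, and of the other 17 members with a window in 3. The letters TGATGNAA, one form of the ATF4 element, were in 0 member windows and 3.97% of all windows. TTTGAA or TTCGAA, the CHR element of cell-cycle promoters, was in 2 member windows, those of Dck and Umps, and in 19.2% of all windows. These are matches of letters in a fixed window and not measured binding.

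Values are in TPM, the transcript abundance in parts of 1000000, which the authors scaled by transcript length and library, so that levels of different genes can be set side by side within a library. All 33 members had at least 1 TPM in at least 2 libraries, the filter that left 13332 genes for testing. Between 12554 and 12827 genes reached 1 TPM in a library. How many reads stand behind a TPM value is unknown. The table of the rRNA-depleted series summed to 937217 to 950531 TPM and that of the poly(A) libraries to 1000000. All 14 fibroblast markers passed the filter, with the collagen gene Col1a1 between 3068 and 7460 TPM. Of these 14 markers 4 rose in PD14 against PD2 and 0 fell by limma, where 6.41% of all genes tested rose and 4.77% fell. Those that rose were the matrix genes Col3a1, Dcn and Lum and the transcription factor gene Twist1. The markers summed to 31938 TPM at PD14 against 21932 at PD2 in the rRNA-depleted series and 22061 at PD14 against 16850 at PD2 in the poly(A) series, and their part in the members' change was not tested. Tie1 of endothelium, Esrp1 of epithelium and Myf5 of muscle were at 0 in all 6 libraries, each the only such gene of its list. Other genes of these lists were present, with Flt1 at 94.6, Krt19 at 28.5 and Des at 48.5 TPM in the poly(A) PD2 library.

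The summed level of the 33 members was lower at PD14 than at PD2 in both methods. Together they took 1517 TPM at PD14 against 2381 at PD2 in the rRNA-depleted series, and 2056 at PD14 against 3274 at PD2 in the poly(A) series. Genes were tested with limma on log2(TPM + 1), with library method as a block, and p-values were adjusted over all 13332 genes by the Benjamini-Hochberg method with a threshold of 0.05. In PD14 against PD2, 13 of 33 members (39.4%) fell and 0 rose, where 4.77% of all genes tested fell and 6.41% rose. Because the members were chosen with earlier results of these data known, contrasts with all genes are descriptive. The 13 were Rrm1, Rrm2, Tk1, Dut, Phgdh, Psat1, Psph, Shmt2, Mthfd2, Mthfd1l, Paics, Umps and Nme1. Without the library block 0 members passed in limma, and 0 passed without either PD8 library or either PD14 library, where over all genes at most 3 lower and 22 higher calls were made. Without the rRNA-depleted PD2 library Rrm2, Psph, Umps and Nme1 lost their calls, while Dctpp1, Shmt1, Gart and Gmps passed. Without the poly(A) PD2 library Psph, Mthfd2, Mthfd1l, Paics, Umps and Nme1 lost theirs, while Tyms passed. Psph, Umps and Nme1 thus lost their calls whichever library was left out. The fitted values of the 13 genes called in the main fit stayed below 0 under each alternative run. Another 9 members, all of them lower, had limma adjusted p between 0.05 and 0.1. The share of all genes tested in that range was not counted, so the number cannot be set against it.

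The median fitted change of the members was -0.76 on the log2(TPM + 1) scale, against 0.06 for all genes tested. On that scale the added 1 understates the change of genes with low TPM. Fitted values ran from -1.52 for Psat1 to 0.37 for Ctps, and 30 of 33 were below 0. In both library methods 29 members were lower at PD14 (87.9%), as were 30.8% of all genes tested. Another 2, Impdh1 and Adk, had opposite signs in the methods, as did 30.1% of genes tested. For 20 members (60.6%) both PD14 libraries lay below both PD2 libraries, against 15.8% of genes tested, and for 0 members both lay above, against 22.4%. A stepwise order, lower at PD8 than at PD2 and lower again at PD14 in both methods, was seen in 21 members (63.6%) and in 13% of genes tested. Over all genes 636 fell and 854 rose, a split that turned to 842 and 707 with libraries set to a common median and to 834 and 736 after quantile normalization. With these bulk libraries fewer cells of a type and less RNA per cell cannot be told apart.

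**Figure D1:**
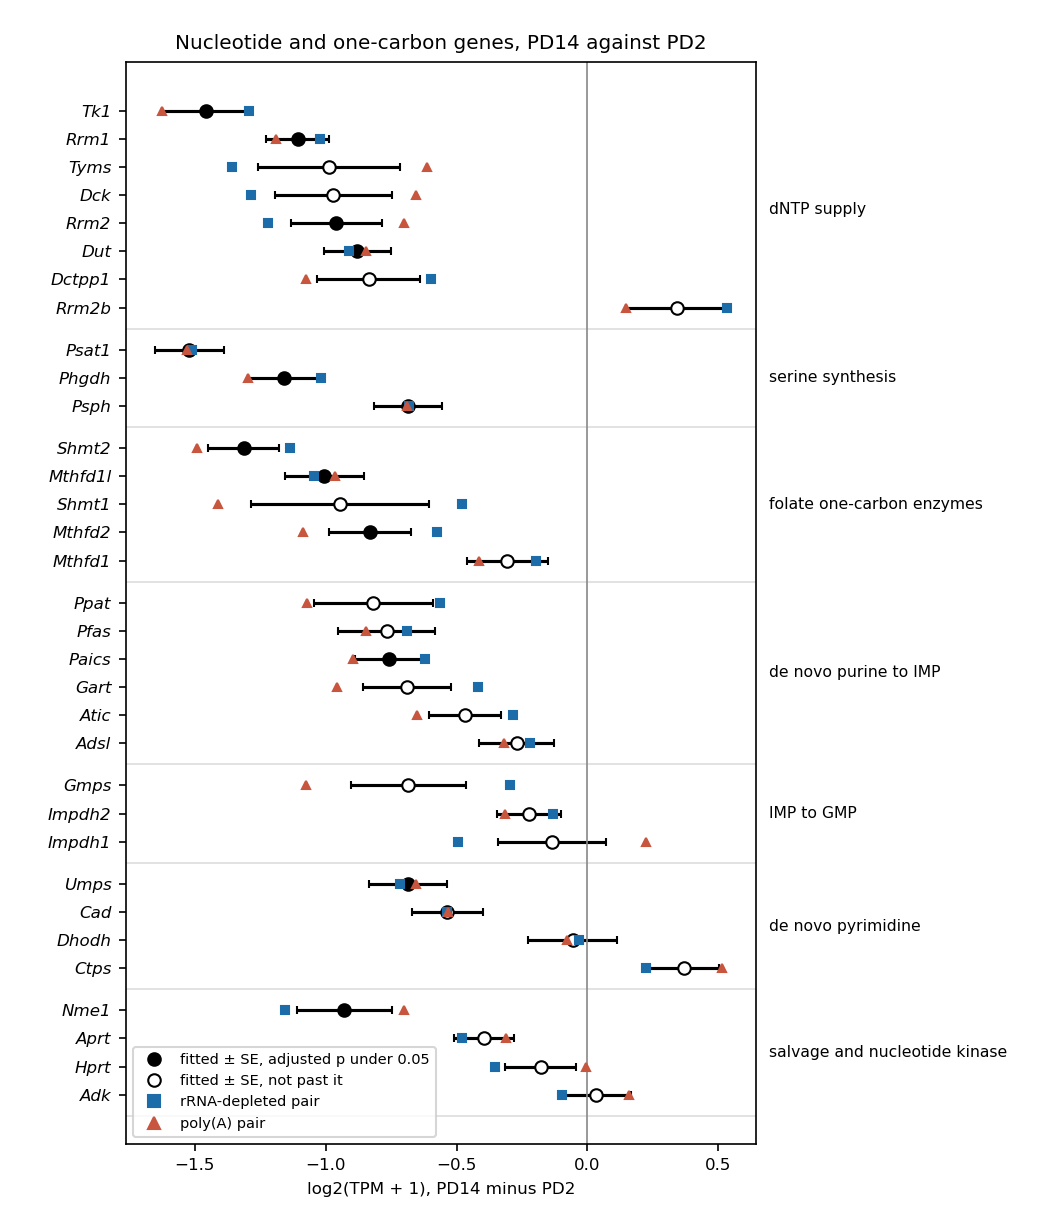
Change in log2(TPM + 1) of each of the 33 members, PD14 minus PD2, grouped by role. Circles are fitted values with their SE (n = 2 libraries per PD), black where adjusted p was under 0.05. Squares and triangles are the differences within the rRNA-depleted and the poly(A) pair. Psat1, Tk1 and Shmt2 lie farthest to the left, and Rrm2b and Ctps lie right of 0 in both methods.

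Deoxynucleotide supply showed the change in 4 of its 8 genes, Rrm1, Rrm2, Tk1 and Dut, with a median of -0.97. Ribonucleotide reductase turns ribonucleotides into deoxyribonucleotides and consists of a large subunit, Rrm1, and a small one, Rrm2 in cycling cells. Rrm1 (chromosome 7, 102441695 to 102469771 on mm10) had 111, 66.7 and 54.1 TPM at PD2, PD8 and PD14 of the rRNA-depleted series, and 134, 72.6 and 58.2 TPM in the poly(A) series. Both PD14 values were below both PD2 values, and the fitted change was -1.11 ± 0.12 (SE, n = 2 per PD, limma adjusted p = 0.0188). Rrm2 (chromosome 12, 24708241 to 24714146) had 117, 84.4 and 49.7 TPM and, in the poly(A) series, 131, 93.5 and 80.5 TPM. It was lowest at PD14 in both methods and fell by 0.96 ± 0.17 (limma adjusted p = 0.0357).

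Rrm2b, the small subunit that p53 induces and that serves cells outside S phase, did not follow Rrm2. Rrm2b had 11.98, 17.5 and 17.8 TPM in the rRNA-depleted and 8.96, 11.3 and 10.0 TPM in the poly(A) series. Its libraries at PD14 and PD2 overlapped, and the fitted value was 0.34 ± 0.19 (limma adjusted p = 0.286, 95% interval -0.15 to 0.83). Within a library, where scaling cancels, the ratio of Rrm2 to Rrm2b was 9.77, 4.81 and 2.79 at PD2, PD8 and PD14 of the rRNA-depleted series. In the poly(A) series it was 14.7, 8.30 and 8.03. The ratio was thus lowest at PD14 in both, although the poly(A) values of PD8 and PD14 lay close together. Rrm2 and Rrm1 stayed near equal levels, with a ratio between 0.919 and 1.38 in the 6 libraries.

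Thymidylate can be made from deoxyuridylate by Tyms or salvaged by the kinase Tk1. Tk1 (chromosome 11, 117815526 to 117826092) had 36.8, 19.7 and 14.4 TPM, and 52.6, 29.0 and 16.4 TPM in the poly(A) series. It fell by 1.46 ± 0.17 (limma adjusted p = 0.0203), and its values were ordered by passage in both methods. The mitochondrial thymidine kinase gene Tk2 had 11.6, 13.2 and 18.9 TPM, and 10.3, 16.1 and 18.5 TPM in the poly(A) series, with a fitted value of 0.72 ± 0.19 (limma adjusted p = 0.0735). The ratio of Tk1 to Tk2 was 3.18, 1.49 and 0.765 at PD2, PD8 and PD14 of the rRNA-depleted series and 5.09, 1.80 and 0.886 in the poly(A) series. Tk2 was therefore the higher of the pair at PD14 in both methods, and Tk1 at PD2 and PD8.

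Tyms was at 40.1, 20.7 and 15.0 TPM in the rRNA-depleted series and at 20.3, 21.3 and 12.9 TPM in the poly(A) series. The methods differed at the early step, where the poly(A) value hardly moved, and the fitted change of -0.99 ± 0.27 did not pass (limma adjusted p = 0.0776). Dut, which destroys dUTP so that uracil is not built into DNA, had 59.9, 39.2 and 31.4 TPM, and 87.4, 65.3 and 48.1 TPM in the poly(A) series. It fell by 0.88 ± 0.13 (limma adjusted p = 0.0254), by nearly the same amount in either method. Dck, the deoxycytidine salvage kinase, was at -0.97 ± 0.22 and Dctpp1, which hydrolyses dCTP and modified forms of it, at -0.84 ± 0.20. They missed the threshold with limma adjusted p of 0.0532 and 0.0564, and for each of them both PD14 libraries lay below both PD2 libraries.

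**Figure D2:**
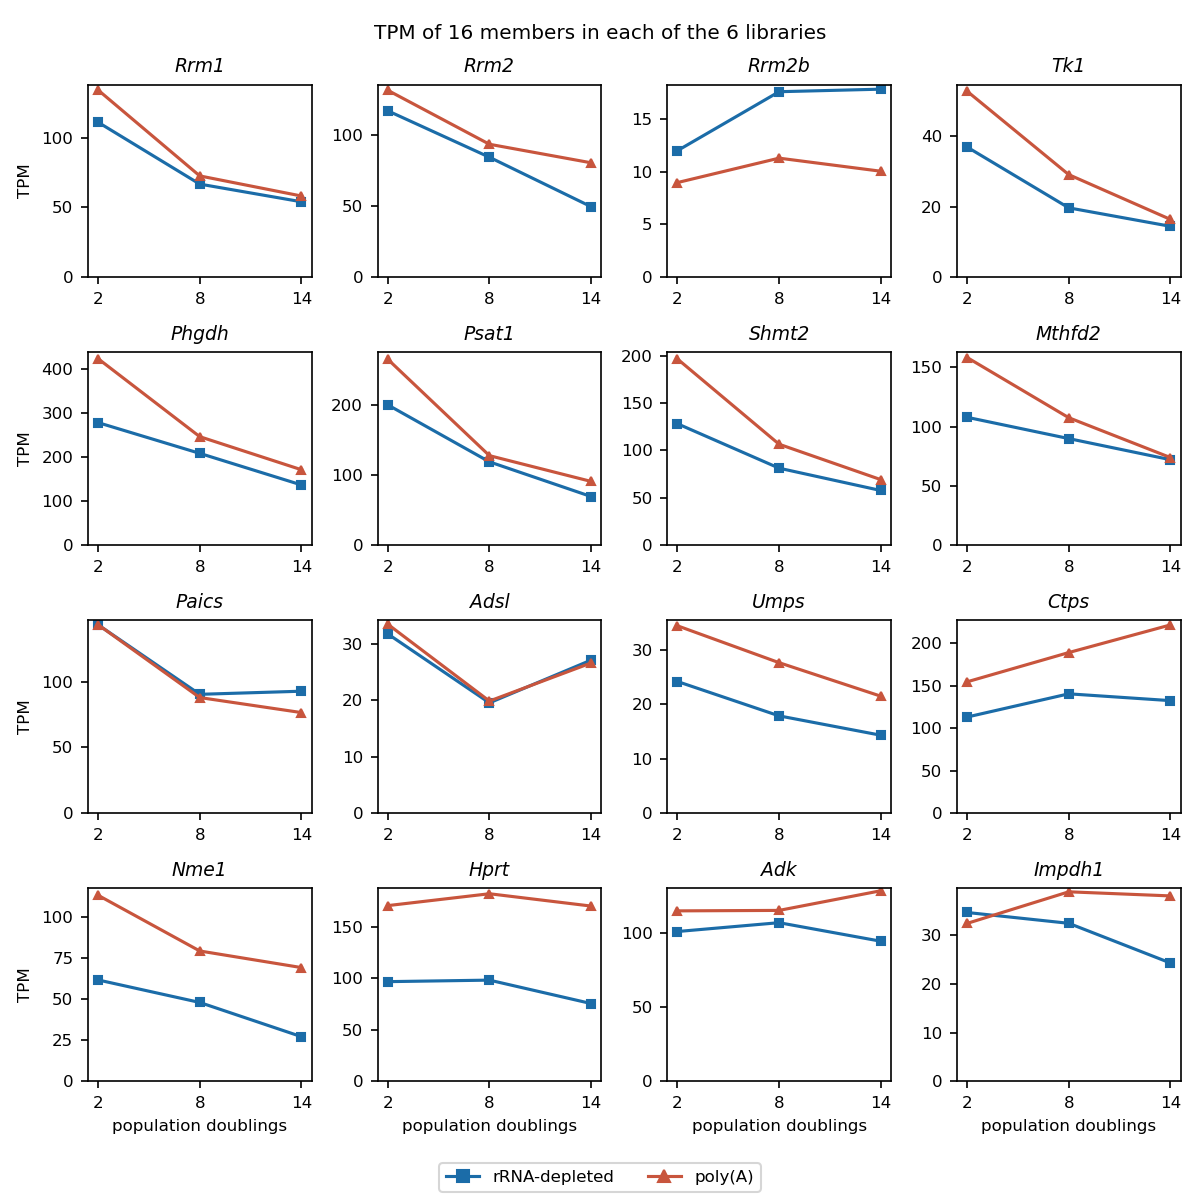
TPM of 16 members against population doublings, 1 point per library, with squares for rRNA-depleted and triangles for poly(A) libraries. Rrm1, Tk1, Phgdh, Psat1, Shmt2 and Umps descend in both methods, Adsl dips at PD8, and Hprt, Adk and Ctps do not descend in both.

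All 3 genes of serine synthesis fell, with a median of -1.16. Their summed level was 514, 355 and 228 TPM at PD2, PD8 and PD14 of the rRNA-depleted series and 758, 424 and 305 TPM in the poly(A) series. Phgdh (chromosome 3, 98313170 to 98339990) commits 3-phosphoglycerate to serine. It had 278, 208 and 137 TPM, and 423, 246 and 171 TPM in the poly(A) series, and fell by 1.16 ± 0.14 (limma adjusted p = 0.0206). It had the highest mean TPM of the 33 members.

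Psat1 (chromosome 19, 15904678 to 15947337), the aminotransferase of the next step, had 201, 119 and 69.6 TPM in the rRNA-depleted series and 266, 128 and 91.2 TPM in the poly(A) series. At PD14 it stood at 34.7% and 34.3% of its PD2 level in the rRNA-depleted and the poly(A) pair. Its fitted change of -1.52 ± 0.13 (limma adjusted p = 0.0166) was the largest fall among the members. Psph (chromosome 5, 129765558 to 129787449), the phosphatase that releases serine, had 35.6, 27.6 and 21.8 TPM, and 69.6, 50.2 and 42.8 TPM in the poly(A) series. It descended in each method and fell by 0.69 ± 0.13 (limma adjusted p = 0.0391), although its levels differed so much between methods that PD14 and PD2 libraries overlapped.

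Among the 5 folate enzymes the 3 mitochondrial ones passed the threshold. For all 5, both PD14 libraries lay below both PD2 libraries. Shmt2, which splits serine into glycine and a folate-bound carbon in mitochondria (chromosome 10, 127517123 to 127522444), had 128, 81.3 and 57.8 TPM, and 196, 107 and 69.3 TPM in the poly(A) series. It fell by 1.31 ± 0.14 (limma adjusted p = 0.0181). Mthfd2 oxidises that carbon unit (chromosome 6, 83305691 to 83325908) and had 108, 90.0 and 72.2 TPM, and 158, 108 and 74.0 TPM in the poly(A) series. Its poly(A) difference was the larger, -1.09 against -0.57 in the rRNA-depleted pair, and it fell by 0.83 ± 0.16 (limma adjusted p = 0.0389). Mthfd1l, which releases formate to the cytosol (chromosome 10, 3973118 to 4167081), had 34.96, 22.7 and 16.4 TPM, and 39.1, 23.4 and 19.6 TPM in the poly(A) series. It fell by 1.005 ± 0.15 (limma adjusted p = 0.0268), in similar measure in both methods.

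The cytosolic partners Mthfd1 and Shmt1 did not pass, although the fitted value of Shmt1 lay between those of Mthfd2 and Mthfd1l. The difference between the compartments was not tested. Mthfd1, the cytosolic enzyme with 3 folate activities, had 42.9, 46.4 and 37.4 TPM, and 51.9, 41.8 and 38.6 TPM in the poly(A) series. It was highest at PD8 in the rRNA-depleted series, and the fitted value was -0.31 ± 0.15 (limma adjusted p = 0.239, 95% interval -0.70 to 0.09). Shmt1 had 17.8, 21.9 and 12.5 TPM in the rRNA-depleted series and 19.7, 9.25 and 6.79 TPM in the poly(A) series. Between PD2 and PD8 the methods moved in opposite directions, and its value of -0.95 ± 0.34 had the largest SE of the 33 (limma adjusted p = 0.131). The ratio of Mthfd2 to Mthfd1 was 2.51, 1.94 and 1.93 at PD2, PD8 and PD14 of the rRNA-depleted series and 3.05, 2.57 and 1.91 in the poly(A) series. That of Shmt2 to Shmt1 differed by method, at 7.20, 3.71 and 4.62 in the rRNA-depleted series and 9.95, 11.5 and 10.2 in the poly(A) series.

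**Figure D3:**
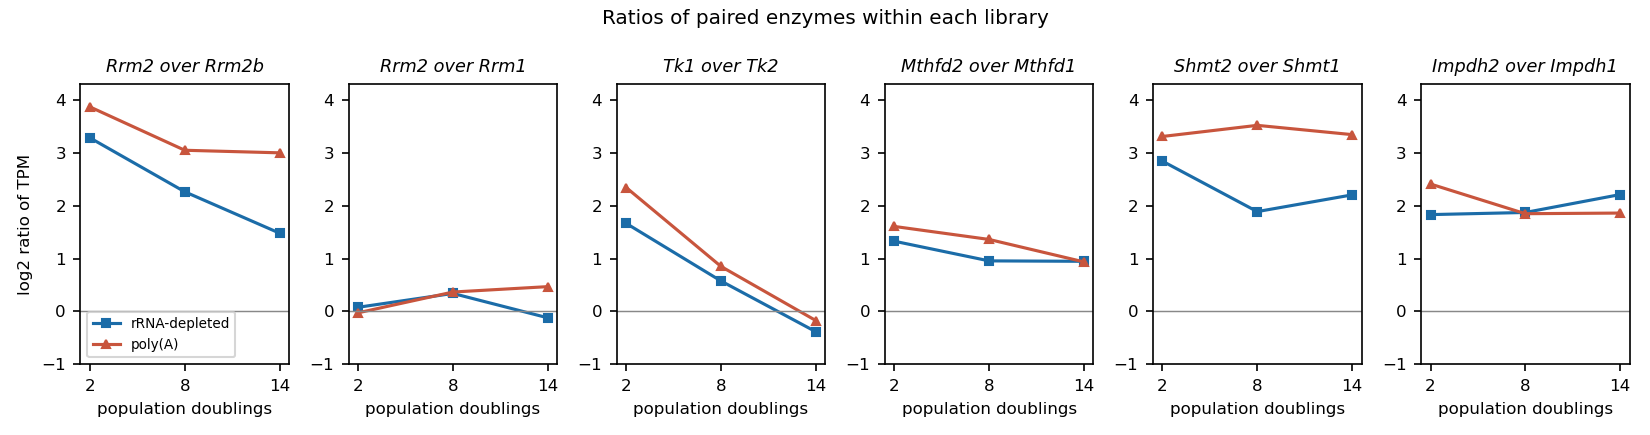
Log2 ratio of TPM of paired genes within each library against population doublings, with squares for rRNA-depleted and triangles for poly(A) libraries. Tk1 over Tk2 passes below 0 at PD14 in both methods, and Rrm2 over Rrm2b is lowest at PD14 in both. Shmt2 over Shmt1 and Impdh2 over Impdh1 differ in course between the methods.

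De novo purine synthesis had a median of -0.72 over its 6 genes, of which Paics fell. Paics, a bifunctional enzyme of the middle of the pathway (chromosome 5, 76951307 to 76967509), had 143, 90.5 and 92.8 TPM, and 143, 88.0 and 76.6 TPM in the poly(A) series. Most of its difference lay between PD2 and PD8, and it fell by 0.76 ± 0.13 (limma adjusted p = 0.0326). Ppat, the amidotransferase that opens the pathway, had 15.2, 11.03 and 9.98 TPM, and 18.7, 8.70 and 8.35 TPM in the poly(A) series, with a fitted value of -0.82 ± 0.23 (limma adjusted p = 0.0781). Ppat and Paics lie head to head on opposite strands, and their exons share 272 bases. In both genes the step to PD8 made up most of the change.

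Of the remaining purine genes, Pfas was at -0.77 ± 0.19, Gart at -0.69 ± 0.17 and Atic at -0.47 ± 0.14. Pfas and Gart make early intermediates and Atic closes the ring, and all 3 descended stepwise in both methods without passing (limma adjusted p = 0.0590, 0.0605 and 0.0894). Adsl, which acts in the pathway to IMP and again on the branch to AMP, had another course. It had 31.8, 19.6 and 27.1 TPM, and 33.5, 19.9 and 26.6 TPM in the poly(A) series. PD8 was the lowest point in both methods, and the methods differed by less than 2 TPM at each PD, while the fitted PD14 value was -0.27 ± 0.14 (limma adjusted p = 0.260). Adsl was one of the 2 members with an unadjusted p under 0.05 for the difference of the late from the early step, which 4.25% of all genes reached and 0 genes passed after adjustment in limma.

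On the branch from IMP to GMP 0 of 3 genes passed the threshold (limma, PD14 against PD2), with a median of -0.22. Of the 3, Gmps alone had an unadjusted limma p under 0.05, which 4266 of the 13332 genes tested also reached. Impdh2, the main IMP dehydrogenase gene of proliferating cells, had 124, 119 and 113 TPM, and 173, 141 and 139 TPM in the poly(A) series, with a fitted value of -0.22 ± 0.12 (limma adjusted p = 0.268, 95% interval -0.54 to 0.09). Impdh1 had 34.7, 32.5 and 24.3 TPM in the rRNA-depleted series and 32.5, 39.0 and 38.2 TPM in the poly(A) series, so the methods disagreed in direction. Gmps, which makes GMP, had 41.3, 33.2 and 33.4 TPM, and 34.2, 20.9 and 15.7 TPM in the poly(A) series. Its poly(A) difference of -1.07 was larger than the -0.30 of the rRNA-depleted pair, and its fitted value was -0.68 ± 0.22 (limma adjusted p = 0.105).

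Pyrimidine synthesis was mixed, with a median of -0.30. Umps, which makes UMP from orotate (chromosome 16, 33954782 to 33967038), had 24.2, 17.9 and 14.3 TPM, and 34.5, 27.7 and 21.5 TPM in the poly(A) series. It fell by 0.69 ± 0.15, with the weakest call of the 13 (limma adjusted p = 0.0494). Cad, the enzyme of the opening reactions, had 56.9, 42.3 and 38.8 TPM, and 51.6, 44.3 and 35.3 TPM in the poly(A) series. The pairs differed by nearly the same amount, and its value of -0.54 ± 0.13 did not pass (limma adjusted p = 0.0647). Dhodh, the mitochondrial enzyme between them, was at 12.8 to 16.2 TPM in all libraries, with a fitted value of -0.06 ± 0.17 (limma adjusted p = 0.846, 95% interval -0.49 to 0.37).

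Ctps, which turns UTP into CTP (chromosome 4, 120539868 to 120570276), ran the other way in level. It had 113, 140 and 132 TPM in the rRNA-depleted series and 154, 189 and 221 TPM in the poly(A) series. PD14 was above PD2 in each method, and the value of 0.37 ± 0.13 did not pass (limma adjusted p = 0.130, 95% interval 0.03 to 0.71, which is not adjusted for the number of genes). With Rrm2b it was one of the 2 members that were higher at PD14 in both methods.

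Of the base salvage genes Hprt and Aprt, the adenosine kinase gene Adk and the kinase gene Nme1, Nme1 alone fell, with a median of -0.29 over the 4. Hprt, which salvages hypoxanthine and guanine, had 96.8, 98.3 and 75.5 TPM, and 171, 182 and 170 TPM in the poly(A) series, with a fitted value of -0.18 ± 0.14 (limma adjusted p = 0.410, 95% interval -0.52 to 0.17). Adk had 101, 107 and 94.6 TPM, and 115, 115 and 129 TPM in the poly(A) series. Its value was 0.03 ± 0.13 (limma adjusted p = 0.891, 95% interval -0.31 to 0.37), with opposite signs in the methods, and it turned negative with libraries at a common median (-0.06) or after quantile normalization (-0.01). Aprt, which salvages adenine, had 102, 91.1 and 73.2 TPM, and 225, 219 and 181 TPM in the poly(A) series. It descended in both methods, with -0.39 ± 0.12 (limma adjusted p = 0.0882).

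Nme1, a nucleoside diphosphate kinase (chromosome 11, 93956979 to 93968521), had 61.6, 47.9 and 27.1 TPM, and 113, 79.2 and 69.1 TPM in the poly(A) series. It fell by 0.93 ± 0.18 (limma adjusted p = 0.0400), with the lowest value at PD14 in both methods. It shares 418 exon bases with the read-through gene Gm20390 and resembles its neighbour Nme2, so its value is uncertain. Overlap with other coding genes in the table was 83 bases for Tk1 (Afmid), 32 for Shmt2 (Ndufa4l2), 184 for Shmt1 (Smcr8) and 48 for Impdh2 (Ndufaf3), all on the opposite strand. Annotated antisense or noncoding genes overlap exons of Gart, Umps, Rrm2b and Mthfd1 by 1014, 213, 734 and 37 bases. Psph shares 452 exon bases with Cct6a on the opposite strand, which the annotation classes as a processed transcript. Whether the TPM were computed by strand is not given in the sources used here. Aprt, Impdh2, Phgdh and Tyms have an annotated processed pseudogene named after them, which can draw reads from them. Pseudogenes under other names were not searched for.

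Read by step, the members had no call in either the early or the late interval. In PD8 against PD2, 0 members passed in limma, where 0% of all genes tested were lower and 0.0225% higher at the threshold. An unadjusted p under 0.05 was reached by 15 of 33 members and by 20.3% of all genes tested. In PD14 against PD8, 0 members passed in limma, where 0% of genes were called in either direction, and 11 of 33 members and 5.6% of all genes had an unadjusted p under 0.05. The members' median was -0.43 for the early step and -0.28 for the late step, against 0.04 and 0.01 for all genes tested. PD8 was below PD2 in both methods for 25 of 33 members (75.8%) and 31.7% of all genes tested. PD14 was below PD8 in both for 26 members (78.8%) and 25.3% of all genes. The difference between the steps passed for 0 members and 0% of all genes in limma. It had an unadjusted p under 0.05 in 2 members (6.06%), near the 4.25% of all genes. An F test over the 3 PDs passed for 3 members, Psat1 (limma adjusted p = 0.0415), Shmt2 (0.0450) and Rrm1 (0.0466), against 1.46% of genes tested, and for 0 members without either PD8 library, without either PD14 library, without the block, without the filter on low values or without the mean-variance trend.

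Other genes of these pathways were read from lists of relatives beside the members. In PD14 against PD2, 4.77% of all genes tested fell and 6.41% rose, so a single call in a list of 15 to 20 genes is near these shares. Of 19 tested genes of the folate cycle and transport, 2 fell and 1 rose, with a median of 0.09. Aldh1l2, the mitochondrial formyl-folate dehydrogenase, fell by 1.33 ± 0.20 (limma adjusted p = 0.0277), and 1056 of its exon bases overlap D10Wsu102e. Ggh, which trims the glutamate tail of folates in lysosomes, had 32.5, 41.8 and 52.5 TPM, and 33.4, 47.1 and 54.9 TPM in the poly(A) series. It rose by 0.69 ± 0.13 (limma adjusted p = 0.0378), with nearly the same levels in both methods.

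Of 14 genes of the methionine cycle and transsulfuration 3 fell and 0 rose, with a median of -0.36. Over all genes tested 4.77% fell and 6.41% rose. Cth, the cystathionine lyase gene, fell by 1.05 ± 0.20, Ahcy, which clears S-adenosylhomocysteine, by 0.98 ± 0.13, and Mtap, which salvages methylthioadenosine, by 0.53 ± 0.11 (limma adjusted p = 0.0391, 0.0222 and 0.0465). Of 15 other purine genes 3 fell and 1 rose, with a median of 0.02. Adss, which starts the branch to AMP, fell by 0.62 ± 0.14, and Ak6 by 0.57 ± 0.11 (limma adjusted p = 0.0497 and 0.0414). Ak6 shares 1564 exon bases with Taf9 on the same strand and is uncertain. Prps2, which makes the activated ribose that purine synthesis starts from, rose by 0.66 ± 0.14 (limma adjusted p = 0.0485). Of 20 other pyrimidine and deoxynucleotide genes, the uridine-cytidine kinase gene Uck2 fell by 1.11 ± 0.14 (limma adjusted p = 0.0214), 0 rose, and the median was 0.27.

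Genes of nucleotide breakdown and nucleoside transport had calls in the upward direction. Of 21 tested 4 rose and 0 fell, where 6.41% of all genes tested rose and 4.77% fell. The list had a median of 0.21, and its fitted values ran from -1.36 to 2.99. Gda, guanine deaminase, had 5.67, 17.96 and 31.5 TPM, and 1.77, 15.4 and 34.9 TPM in the poly(A) series. It rose by 2.99 ± 0.37 (limma adjusted p = 0.0208) and stood higher at each later PD in both methods. Dpyd, the enzyme that starts uracil and thymine breakdown, had 4.16, 6.57 and 14.7 TPM, and 0.996, 4.66 and 7.74 TPM in the poly(A) series, and rose by 1.87 ± 0.30 (limma adjusted p = 0.0295). Slc29a1, an equilibrative nucleoside transporter, rose by 0.84 ± 0.18 (limma adjusted p = 0.0497). The fourth, cytidine deaminase Cda, has a mean under 5 TPM and is named because its value was seen; it rose by 1.55 ± 0.26 (limma adjusted p = 0.0326).

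**Figure D4:**
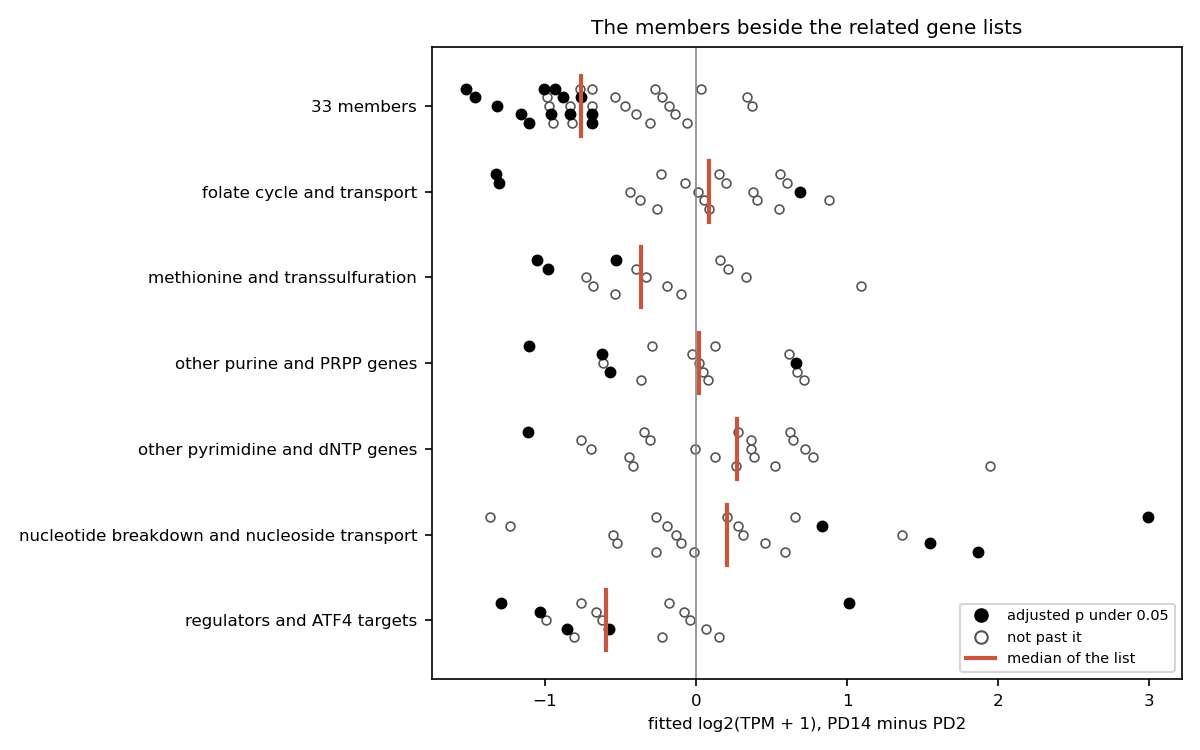
Fitted change in log2(TPM + 1), PD14 minus PD2, of the 33 members and of the tested genes of 6 related lists, with 1 point per gene, black where adjusted p was under 0.05. Vertical bars are list medians. The member median of -0.76 lies left of the others, and the black points of nucleotide breakdown all lie right of 0.

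**Figure D5:**
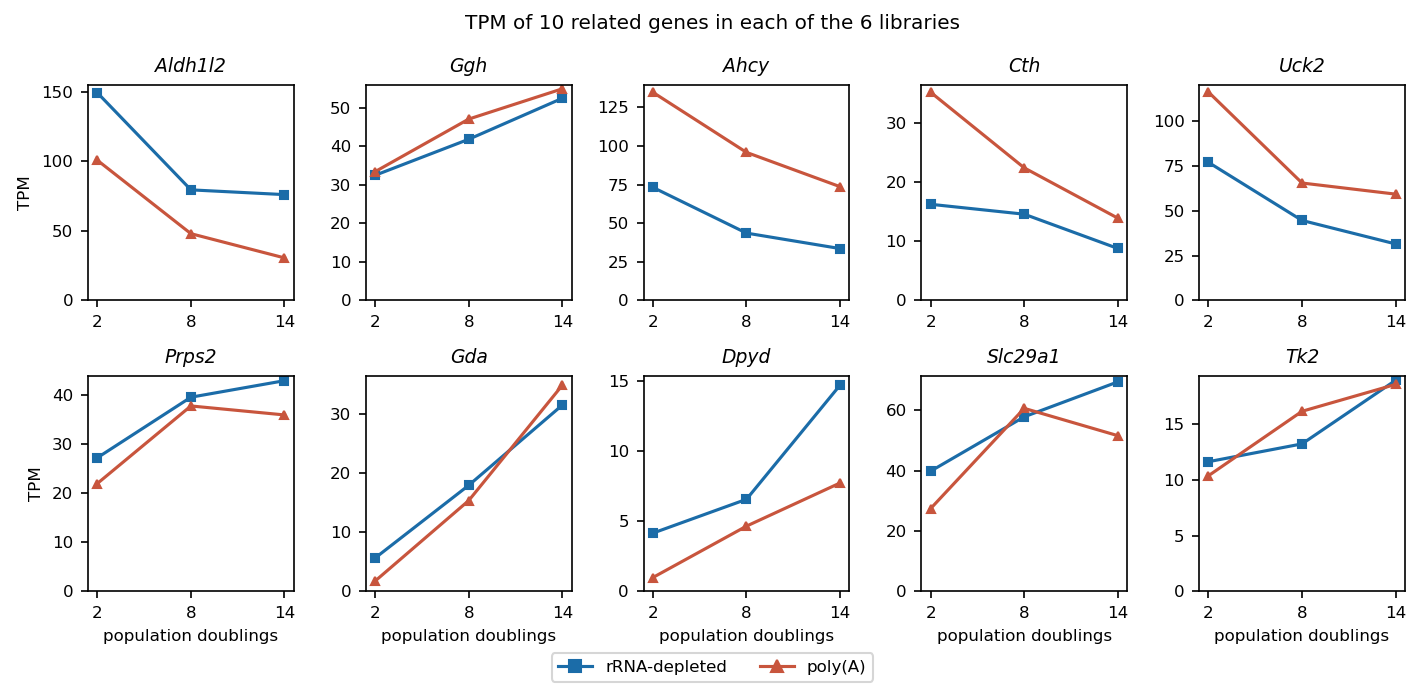
TPM of 10 related genes against population doublings, 1 point per library, with squares for rRNA-depleted and triangles for poly(A) libraries. Ahcy, Cth and Uck2 descend in both methods, while Gda, Dpyd, Ggh and Tk2 are higher at PD14 than at PD2 in both.

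Of 16 regulators and ATF4 targets outside the members 4 fell and 1 rose, with a median of -0.60. Among all genes tested 4.77% fell and 6.41% rose. The leucine transporter gene Slc7a5 fell by 1.29 ± 0.21, the pseudokinase gene Trib3 by 1.03 ± 0.20, asparagine synthetase Asns by 0.86 ± 0.16 and the proline synthesis gene Aldh18a1 by 0.57 ± 0.11 (limma adjusted p = 0.0313, 0.0385, 0.0364 and 0.0400). Atf4 itself had 405, 330 and 246 TPM, and 638, 397 and 421 TPM in the poly(A) series, with a fitted value of -0.66 ± 0.16 (limma adjusted p = 0.0627). Myc was at -0.62 ± 0.20 (limma adjusted p = 0.109). Mxd4, which encodes a repressor that competes with MYC for its partner MAX, had 87.6, 130 and 145 TPM, and 58.9, 132 and 148 TPM in the poly(A) series, and rose by 1.01 ± 0.19 (limma adjusted p = 0.0360). ATF4 and MYC act largely as proteins, which these libraries do not measure.

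Genes of cell division moved beside the members, and their part in the members' change was not tested. Of 13 division genes and regulators 9 fell and 1 rose, with a median of -1.33, where 4.77% of all genes tested fell and 6.41% rose. This list was chosen with earlier results of these data known. Mki67, the proliferation marker, had 121, 56.4 and 36.4 TPM, and 52.1, 20.1 and 7.46 TPM in the poly(A) series. It fell by 2.18 ± 0.25, and the replication clamp gene Pcna fell by 0.996 ± 0.14 (limma adjusted p = 0.0203 and 0.0240). The one that rose was Cdkn2a, which encodes the inhibitors p16 and ARF and was named after its value was seen. Markers of other cell types also differed. Summed levels of 10 muscle markers were 5.98 TPM at PD14 against 52.5 at PD2 in the rRNA-depleted series and 12.8 against 111 in the poly(A) series, and 4 of 6 tested fell. Those of 10 epithelial markers were 6.19 at PD14 against 23.3 at PD2 in the rRNA-depleted and 2.75 against 42.9 TPM in the poly(A) series, with 2 of 4 tested lower. Those of 13 macrophage and leukocyte markers were 44.0 at PD14 against 165 at PD2 in the rRNA-depleted series and 704 against 431 in the poly(A) series, with 0 of 12 tested past the threshold in limma. Endothelial markers summed to 30.3 TPM at PD14 against 49.8 at PD2 in the rRNA-depleted and 68.1 at PD14 against 110 at PD2 in the poly(A) series, with 2 of 5 tested lower. Neural markers summed to 188 TPM at PD14 against 130 at PD2 in rRNA-depleted RNA and 151 at PD14 against 230 at PD2 in poly(A) RNA, with 2 of 7 lower and 1 higher. The part of these markers in the members' change was not tested.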

How the data were processed

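The authors deposited transcript abundance in TPM per gene symbol for 6 libraries; the submitters' processing notes name bcl2fastq, cutadapt 1.14, HISAT2 2.0.5, StringTie 1.3.1c and the mm10 build, without the role of each. The annotation they used is not given in the sources used here. TPM are relative to each library's own total, and the rRNA-depleted columns lack part of theirs. Values were analysed as log2(TPM + 1) with limma 3.58.1 in R 4.3.3, with a term for each PD, library method as an additive block and a mean-variance trend. The fit left 2 residual degrees of freedom, to which the empirical Bayes prior contributed 3.22. Genes with at least 1 TPM in at least 2 libraries were tested, two-sided. The method was tested on simulated data with normal noise and an additive method effect, as the model itself assumes. That test could not show how the calls depend on the block or on single libraries. The block follows the labels, which tie each replicate number to a library method; deviations of same-numbered libraries from their PD means correlated at 0.664 to 0.854. Positions, overlaps and transcripts came from GENCODE M21 (mm10), and promoters from RefSeq (GRCm38.p6). The members, gene lists and motifs were chosen with earlier results of these data known. All members are named; of related lists, up to 5 genes per direction past the threshold with a mean of at least 5 TPM, and others only beside a result. Some genes of the related lists are not reported here. Ratios use TPM without the added 1. Alternatives covered the added constant, the filter, scaling, the block, the trend and each library left out.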

Additional observations from a re-analysis of the deposited data

Results flagged for a closer look

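Impdh1 and Adk gave opposite signs in the library methods. The PD14 minus PD2 difference in log2(TPM + 1) of Impdh1 was -0.50 in the rRNA-depleted pair and 0.23 in the poly(A) pair. That of Adk was -0.10 in the rRNA-depleted pair and 0.16 in the poly(A) pair. With 1 library per method and PD these differences were not tested, and 30.1% of all genes tested had opposite signs in the methods.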

How the results depend on the processing

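For PD14 against PD2, the 636 genes lower became 175 with no filter on low values and 398 with no mean-variance trend, and the 854 genes higher became 229 and 540; leaving out 1 library gave 0 to 612 lower and 0 to 1181 higher. The 13 members that fell became 6 with no filter and 7 with no trend. With 1 library left out, which members passed depended on the library. Without the replicate block, which pairs libraries by method, 0 genes were lower, 0 higher and 0 members passed. The cause was not tested. For PD8 against PD2, the 3 genes higher became 21 with a pseudocount of 0.1, and 0 with a pseudocount of 5, no filter, quantile normalization, no replicate block or no trend, and 0 to 487 with 1 library left out. In that comparison the 0 genes lower became 0 to 139 and the 0 members lower 0 to 3. For PD14 against PD8 genes lower ranged from 0 to 1, and for the late minus the early step from 0 to 3. The F test's 195 genes and 3 members became 0 with no filter, no replicate block or no trend, 0 to 899 genes and 0 to 6 members with 1 library left out, and 5 members after quantile normalization. Impdh1 changed sign without the rRNA-depleted PD2 (0.13) or PD14 (0.14) library, over a range of -0.41 to 0.14. Adk changed sign after quantile normalization (-0.011), at a common median (-0.062) and without the poly(A) PD2 (-0.012) or PD14 (-0.12) library, over a range of -0.12 to 0.18. Depth is unknown, so counting error at low TPM could not be given.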
